A study of Mus musculus with 25 samples.

Results

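The data described here set mouse bone marrow-derived macrophages (BMDMs) polarized to the M1 state with IFN-γ and LPS directly against BMDMs polarized to the M2 state with IL-4. Both groups are labelled 12 h. The 6 libraries that make up this comparison, 3 labelled M1 12 h and 3 labelled IL-4 M2 12 h, were chosen by their labels from the 25 libraries of the series, which also holds untreated BMDMs, other M1 times, IL-13 M2 cells and RAW264.7 cells. Every BMDM group, the untreated control included, came from C57BL/6 bone marrow cultured with M-CSF at 25 ng/ml for 4 days. The M1 cells received IFN-γ at 100 U/ml and LPS at 100 ng/ml, and the M2 cells IL-4 at 10 ng/ml. The study describes the M1 cells as primed with IFN-γ and gives no length for the priming. The 12 h may therefore be the LPS time alone, and total cytokine exposure may differ between the states. The untreated control BMDMs, labelled 4 h, and the IL-13 M2 (12 h) and M1 24 h libraries, 3 each, are used below only to place the levels. The study describes its replicates as biological triplicates from separate RNA samples. The age of the mice and whether the replicates came from separate animals are not given, so that p-values measure the spread between these libraries. Each state is represented by a single dose and, in the direct comparison, by a single time.

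Macrophages take up different gene programs depending on the signals they meet. IFN-γ acts through JAK1 and JAK2, and LPS acts through CD14 and TLR4 on NF-κB and on interferon regulatory factors, and the classically activated (M1) macrophage that results is known for inflammatory cytokines, nitric oxide and antigen presentation. IL-4 acts through its receptor on STAT6, and the alternatively activated (M2) macrophage is known for arginase, the mannose receptor, chitinase-like proteins and functions in tissue repair and parasite defence. In mouse macrophages, inducible nitric oxide synthase and arginase 1 use the same substrate, arginine, and the pair is widely used to tell the states apart.

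Total counts on genes ran from 2516675 to 2903776 in the M1 libraries and from 2495719 to 2718848 in the IL-4 M2 libraries. After removal of Rn45s, the ribosomal RNA precursor, 1751350 to 2077653 and 1561898 to 1726210 counts were left. On the antisense strand lay 0.0827 to 0.122% of Rn45s counts in the M1 libraries and 0.00996 to 0.0214% in the IL-4 M2 libraries. The labels name no preparation batch, and what sets this share was not tested. A difference in library preparation, if it is one, cannot be told apart from polarization here. The share was 0.0104 to 0.0162% in the M1 24 h libraries, which are therefore set beside the 12 h values below. M1 replicate 3 stood apart from the other M1 libraries: it lay over 1.5 times above their mean for 74 of the 803 genes higher in M1 (below) and as far below it for 33, against 8 and 29 for replicate 1 and 11 and 20 for replicate 2, in CPM + 0.5, where CPM are counts scaled to the same library size for every library. All 12 macrophage markers of the list used were tested, and their summed level was 25548 to 30213 CPM in M1 and 29012 to 30738 CPM in IL-4 M2 libraries. Lyz2 alone had means of 13676 and 16278 CPM. By the thresholds given below, 3 of these markers were higher in M1, 1 was higher in IL-4 M2 and 8 were not called. Cd14 (2737 and 74.9 CPM) and Lgals3 (813 and 6798 CPM) went opposite ways. Summed markers of neutrophils (28.7 to 29.6 and 22.4 to 33.8 CPM), T and NK cells (2.80 to 7.49 and 6.30 to 13.4), B cells (0.566 to 2.24 and 2.14 to 3.52) and erythroid and mast cells (0.624 to 2.24 and 2.29 to 4.02) stayed low in both states. Fibroblast and stromal markers summed to 114 to 176 CPM in M1 and 149 to 253 CPM in IL-4 M2. Dendritic cell markers summed to 992 to 1224 and 313 to 405 CPM, nearly all of it from Bst2, an interferon-induced gene (979 and 74.9 CPM), and Itgax (68.7 and 284 CPM), which macrophages also express. The part of such other cells in any result was not tested.

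Of 9011 genes tested, 803 were higher in M1 and 655 were higher in IL-4 M2 in edgeR's quasi-likelihood test, at thresholds of 0.01 for the false discovery rate (FDR, Benjamini-Hochberg) and of 1.5 for the size of the log2 fold change. These calls are 16.2% of the genes tested, 8.91% higher in M1 and 7.27% higher in IL-4 M2, and the shares are the background for every list below. The lists were drawn up around macrophage activation with earlier results of these data known. A list share above the background is therefore a description and not a test. Fold changes are given as log2 of M1 over IL-4 M2, so that positive values are higher in M1. Of the calls higher in M1, 375 were past a log2 fold change of 3 and 175 past 5, and on the IL-4 M2 side 167 and 38 genes were as far apart. Without the fold threshold, 3935 genes passed the FDR, 2038 of them higher in M1. The genes higher in M1 took 29.5%, 29.6% and 31.2% of the counts in the M1 libraries and 4.12%, 4.11% and 4.00% in the IL-4 M2 libraries. The genes higher in IL-4 M2 took 8.10% to 8.30% of the counts in IL-4 M2 and 1.24% to 1.27% in M1. Scaling by library totals alone, without TMM, moved the median log2 fold change of all genes by -0.34 and the calls to 649 higher in M1 and 971 higher in IL-4 M2, which turned the larger side. Among the 121 tested genes that were named by a rule, no called gene changed direction under it, and no other was called the opposite way.

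The levels in untreated BMDMs differed between the sides. The genes higher in IL-4 M2 had a median level of 27.6 CPM in IL-4 M2, 27.2 CPM in control BMDMs and 5.08 CPM in M1. The genes higher in M1 had a median of 139.9 CPM in M1, 12.6 CPM in IL-4 M2 and 13.4 CPM in control. On both sides the median of the control thus lay close to that of IL-4 M2 and away from that of M1. In a fit of all 21 BMDM libraries, 58 genes were higher and 21 lower in IL-4 M2 than in control (0.803% of 9841 tested), and 864 were higher and 833 lower in M1 12 h than in control (17.2%). Both of these comparisons use the same control libraries, labelled 4 h.

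**Figure D1:**
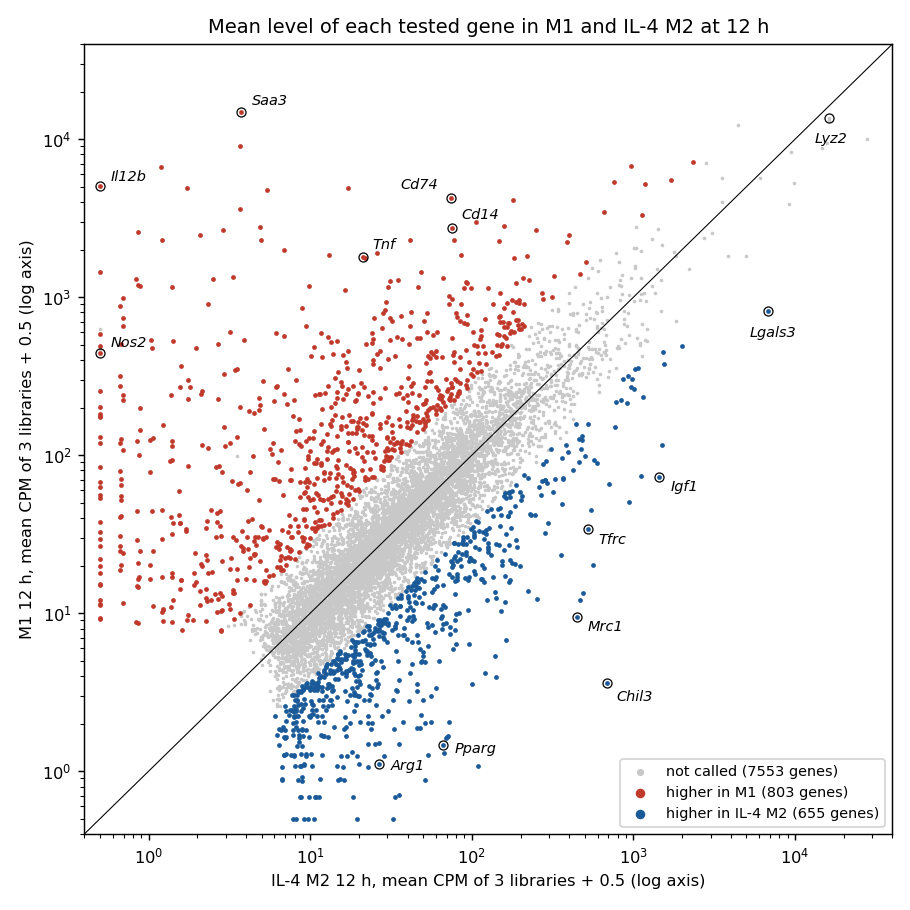
Mean CPM of each of the 9011 tested genes in IL-4 M2 (x axis) and in M1 (y axis) at 12 h, both with 0.5 added and on log axes; red points are the 803 genes called higher in M1, blue points the 655 called higher in IL-4 M2, grey points the others, and the line marks equal levels. Many red points stand at the left edge, at or near 0 CPM in IL-4 M2, while Chil3, Mrc1 and Pparg lie low on the M1 axis.

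Arginine metabolism separated the states at both of its marker enzymes. Nos2, the inducible nitric oxide synthase (mm10 chromosome 11, 78920787 to 78960254), stood at 428, 457 and 446 CPM in the M1 libraries and had no count in any IL-4 M2 or control library. Against a floor of 3 counts over the 3 IL-4 M2 libraries, it was at least 828-fold higher in M1 (edgeR adjusted p = 3.36e-19). Arg1, arginase 1 (mm10 chromosome 10, 24915221 to 24927484), stood at 28.2, 26.2 and 24.6 CPM in IL-4 M2 and at 0, 1.25 and 0.566 CPM in M1, where only 3 counts were seen in all. Its ratio of IL-4 M2 over M1 was 45.4 (95% counting interval 15.2 to 222), with an adjusted p of 1.9e-10 and no count in control. Such intervals are exact, come from both groups' counts and cover counting error only. Slc7a2, a transporter that brings arginine into the cell, was at 3960.1, 4114 and 4257 CPM in M1 and 168, 191 and 182 CPM in IL-4 M2 (log2 fold change 4.50 ± 0.10 SE, adjusted p = 1.5e-20), with 15.6 ± 2.32 CPM (SD, n = 3) in control. Both polarized states thus lay above the control for this transporter, M1 by more. Gch1, which makes the cofactor of nitric oxide synthase, was higher in M1 at 171 ± 6.79 against 21.7 ± 2.77 CPM (SD, n = 3). Ddah2, which degrades an inhibitor of nitric oxide synthase, and Sat1, which acetylates polyamines, were higher in IL-4 M2 (log2 fold changes -2.94 and -2.39). Of the 18 tested members of the arginine and nitric oxide list, 3 were higher in M1, 3 higher in IL-4 M2 and 12 not called, with a median of -0.11 beside -0.02 for all genes tested. Arg2, the mitochondrial arginase, was among those not called, with 11.2, 9.99 and 12.5 CPM in M1 and 6.04, 11.7 and 4.01 in IL-4 M2.

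Of the 20 tested members of the alternative activation list, 15 were higher in IL-4 M2, 3 were higher in M1 and 2 were not called, with a median log2 fold change of -3.91. Chil3, the chitinase-like protein Ym1, stood at 640.3, 700.1 and 721 CPM in IL-4 M2 and 5.59, 3.12 and 0.566 CPM in M1 (log2 fold change -7.77 ± 0.21 SE, adjusted p = 3.07e-18, and -8.54 without M1 replicate 1), with 4.85 ± 1.46 CPM in control. Mrc1, the mannose receptor, was at 442, 456 and 443 CPM in IL-4 M2, 9.51, 10.6 and 6.80 in M1 and 88.0, 82.3 and 74.9 in control (M1 against IL-4 M2 -5.65 ± 0.15 SE, adjusted p = 1.82e-19). The 3 groups did not overlap for Mrc1, the control lying between the polarized states. Irf4, a transcription factor that acts downstream of IL-4, had 46 counts in IL-4 M2 and 1 in M1, a ratio of 42.3 (95% counting interval 7.22 to 1707). Pparg, a lipid-activated nuclear receptor, stood at 59.4, 66.8 and 72.2 CPM in IL-4 M2 and 1.68, 0.624 and 0.566 CPM in M1 (log2 fold change -6.00 ± 0.30 SE, adjusted p = 4.19e-14, and -6.64 without M1 replicate 1), and Pdcd1lg2, the checkpoint ligand PD-L2, at 18.6, 15.0 and 9.17 and 3.91, 0.624 and 2.83 CPM. Ptgs1, the constitutive cyclooxygenase, was at 37.0 ± 6.07 CPM in IL-4 M2 and 1.54 ± 0.628 CPM in M1.

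The 3 members of the list that were higher in M1 were Ccl22, Il10 and Slc7a2. Ccl22, a chemokine that attracts CCR4-bearing T cells and is often used as an M2 marker, stood at 313, 319 and 181 CPM in M1 and 0.503, 0.534 and 2.86 CPM in IL-4 M2 (log2 fold change 7.67 ± 0.46 SE, adjusted p = 1.11e-06, and 8.83 without IL-4 M2 replicate 3). Il10, an anti-inflammatory cytokine, was at 20.1, 17.5 and 48.7 CPM in M1 with no count in IL-4 M2, at least 54.4-fold higher in M1 (adjusted p = 0.00423, and 0.0109 without M1 replicate 1). The groups overlapped for neither gene, nor for any of the 1458 called genes, and the highest M1 value of Il10 was in replicate 3. Among all 9011 genes tested, 5405 (60.0%) had no overlap. The calls were made on these same libraries, so that the lack of overlap is no further support for them. Tgm2 and Il4ra, a transglutaminase and the IL-4 receptor chain, were the members tested and not called, at 375 ± 11 and 357 ± 34.0 CPM for Tgm2 and 205 ± 50.9 and 90.2 ± 1.30 CPM for Il4ra in M1 and IL-4 M2. Of the 37 genes listed, 17 did not pass the filter on low counts, among them Retnla, Mgl2, Ccl24 and Il1r2. Retnla, the secreted protein Fizz1, had 10 counts in IL-4 M2 (2.01, 1.07 and 2.29 CPM) and none in M1 or control, and Mgl2, a galactose-binding lectin, had 15 counts in IL-4 M2 and none in M1. At this depth such genes could not be tested, which does not show that they were equal.

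Promoters of 3 called genes, and of Retnla, which could not be tested, are shown with the letters of the sites that interferon-activated complexes, interferon regulatory factors, NF-κB and STAT6 are known to bind. The table of RefSeq promoters used (GRCm38.p6, 250 bases before to 50 after the start) held Cxcl10 and Gbp2 on the M1 side and Chil3 and Retnla on the IL-4 M2 side. The motifs were GAAANNGAA (the core of the interferon-stimulated response element, ISRE), TTCNNNGAA (the gamma-activated site, GAS), TTCNNNNGAA (the spacing STAT6 prefers) and GGANTTTCC (κB), each searched on both strands. Capitals mark each match, read 5′ to 3′ on the strand of the gene.
Cxcl10: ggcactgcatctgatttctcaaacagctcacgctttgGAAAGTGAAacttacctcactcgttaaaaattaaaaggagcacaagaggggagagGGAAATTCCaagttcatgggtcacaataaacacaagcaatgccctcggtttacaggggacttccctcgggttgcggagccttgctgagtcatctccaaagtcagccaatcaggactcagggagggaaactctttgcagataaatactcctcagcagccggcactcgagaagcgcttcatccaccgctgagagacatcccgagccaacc
Gbp2: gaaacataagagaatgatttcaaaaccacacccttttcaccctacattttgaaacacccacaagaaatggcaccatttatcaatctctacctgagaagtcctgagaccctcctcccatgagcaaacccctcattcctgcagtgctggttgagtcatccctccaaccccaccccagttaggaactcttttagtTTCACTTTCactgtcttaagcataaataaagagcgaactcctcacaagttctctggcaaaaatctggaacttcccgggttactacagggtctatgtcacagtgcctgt
Chil3: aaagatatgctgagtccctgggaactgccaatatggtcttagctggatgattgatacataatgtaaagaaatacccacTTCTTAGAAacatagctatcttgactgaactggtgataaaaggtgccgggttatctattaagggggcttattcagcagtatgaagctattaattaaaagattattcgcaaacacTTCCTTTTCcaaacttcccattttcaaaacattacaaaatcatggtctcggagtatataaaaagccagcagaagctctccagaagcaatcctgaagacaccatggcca
Retnla: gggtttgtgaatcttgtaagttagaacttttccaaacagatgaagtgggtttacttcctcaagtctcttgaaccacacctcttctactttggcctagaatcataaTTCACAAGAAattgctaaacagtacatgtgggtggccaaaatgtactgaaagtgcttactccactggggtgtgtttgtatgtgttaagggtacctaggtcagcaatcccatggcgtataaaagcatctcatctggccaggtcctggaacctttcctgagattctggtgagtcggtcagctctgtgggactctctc
Cxcl10 (chr5:92348840-92349139, minus strand) held an ISRE core 204 bases and a κB match 149 bases before the start, and Gbp2 (chr3:142620413-142620712, plus strand) an ISRE core 49 bases before it. Chil3 (chr3:106167515-106167814, minus strand) held a GAS match 163 bases and an ISRE core 49 bases before the start, and Retnla (chr16:48842359-48842658, plus strand) a STAT6 match 135 bases before it, counting the bases between match and start. The κB match and the ISRE cores of Gbp2 and Chil3 were read on the opposite strand, and no matches overlapped. The ISRE core was in 16.4% of the 810 promoters of genes higher in M1, 5.06% of the 672 promoters of genes higher in IL-4 M2 and 7.50% of the 8944 promoters of all genes tested. For κB the shares were 4.20%, 1.19% and 1.44%, and for GAS 8.89%, 6.40% and 6.83%. The STAT6 spacing was in 6.05%, 6.99% and 5.28% of the same promoters. A match is a description of these letters and not a site shown to be bound, and the shares were not tested.

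Of the 22 tested members of the inflammatory cytokine list, 17 were higher in M1, none was higher in IL-4 M2 and 5 were not called (median log2 fold change 5.34, or 5.07 with the members that had no count in IL-4 M2 set at their lower bound). Il12b, the shared subunit of IL-12 and IL-23, was at 5949, 5793 and 3411 CPM in M1 and at 0 in every IL-4 M2 library, at least 9402-fold higher (adjusted p = 0.000678). Il1b was at 6708, 6493 and 6794 CPM in M1 and 0.503, 1.60 and 0 CPM in IL-4 M2, and Tnf at 1821, 1963 and 1629 and 23.6, 16.0 and 22.9 CPM (log2 fold change 6.41 ± 0.14 SE, adjusted p = 1.08e-20). For Tnf the IL-4 M2 libraries lay beside the control (27.2 ± 0.29 CPM), whereas Il12b and Il1b were near 0 in both. Il6 had 1 count in IL-4 M2 and 285, 262 and 169.9 CPM in M1, a ratio of 1336 (95% counting interval 239 to 52792). Il27, a cytokine of the IL-12 family, was at 186, 179.9 and 157 CPM in M1 and at 0 in IL-4 M2, at least 325-fold higher. The 5 members not called were Il16, Tgfb1, Osm, Csf1 and Mif. Of these, Tgfb1, an immunosuppressive cytokine (41.2 ± 4.80 and 91.8 ± 13.3 CPM in M1 and IL-4 M2), and Il16 passed the FDR on the IL-4 M2 side below the fold threshold (log2 fold changes -1.18 and -1.37), and Mif did so on the M1 side (0.93). Il16 was called at -1.97 without M1 replicate 3 and at -1.53 without IL-4 M2 replicate 3. Csf1, the macrophage growth factor, was at 58.8 and 44.1 CPM.

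Of 16 chemokines tested, 14 were higher in M1, 1 was higher in IL-4 M2 and 1 was not called (median 6.06). Cxcl9 and Cxcl10, ligands of CXCR3 that attract activated T cells, were at 1551, 1595 and 1185 CPM and 546, 565 and 632 CPM in M1 and at 0 in every IL-4 M2 library, at least 2689.9- and 1086-fold higher (adjusted p = 3.04e-18 and 2.39e-19). Ccl5, an attractant of T cells and monocytes, was at 4789, 4485 and 5520.1 CPM in M1 and 1.01, 2.14 and 0.573 CPM in IL-4 M2 (log2 fold change 11.85 ± 0.20 SE). Ccl6, a CC chemokine of mouse myeloid cells, was the member higher in IL-4 M2, at 85, 104 and 98.0 CPM against 15.1, 23.1 and 24.4 CPM in M1 (-2.21 ± 0.16 SE, adjusted p = 5.44e-11). Cxcl12 was not called (5.12 and 9.91 CPM). Among 12 chemoattractant receptors tested, 4 were higher in M1 and 2 in IL-4 M2. Fpr2, a receptor for formylated peptides, was at 426, 414 and 626 CPM in M1 and at 0 in IL-4 M2, at least 917-fold higher, and Ccr7, the homing receptor for lymph nodes, at 17.5 and 0 CPM. Ccrl2 and Fpr1 were the other members higher in M1, and Fpr1, with 1 count in IL-4 M2, was not called without IL-4 M2 replicate 3 (adjusted p = 0.0216 in edgeR's test). Cxcr4, the receptor of CXCL12, was at 251 ± 5.06 CPM in IL-4 M2 and 11.8 ± 5.02 CPM in M1 (log2 fold change -4.43), with 351 ± 23.7 in control, and Ccr3 was the other member higher in IL-4 M2 (-3.18, and -6.77 without M1 replicate 3, which held its M1 counts). Cx3cr1 was not called (log2 fold change 0.96).

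**Figure D2:**
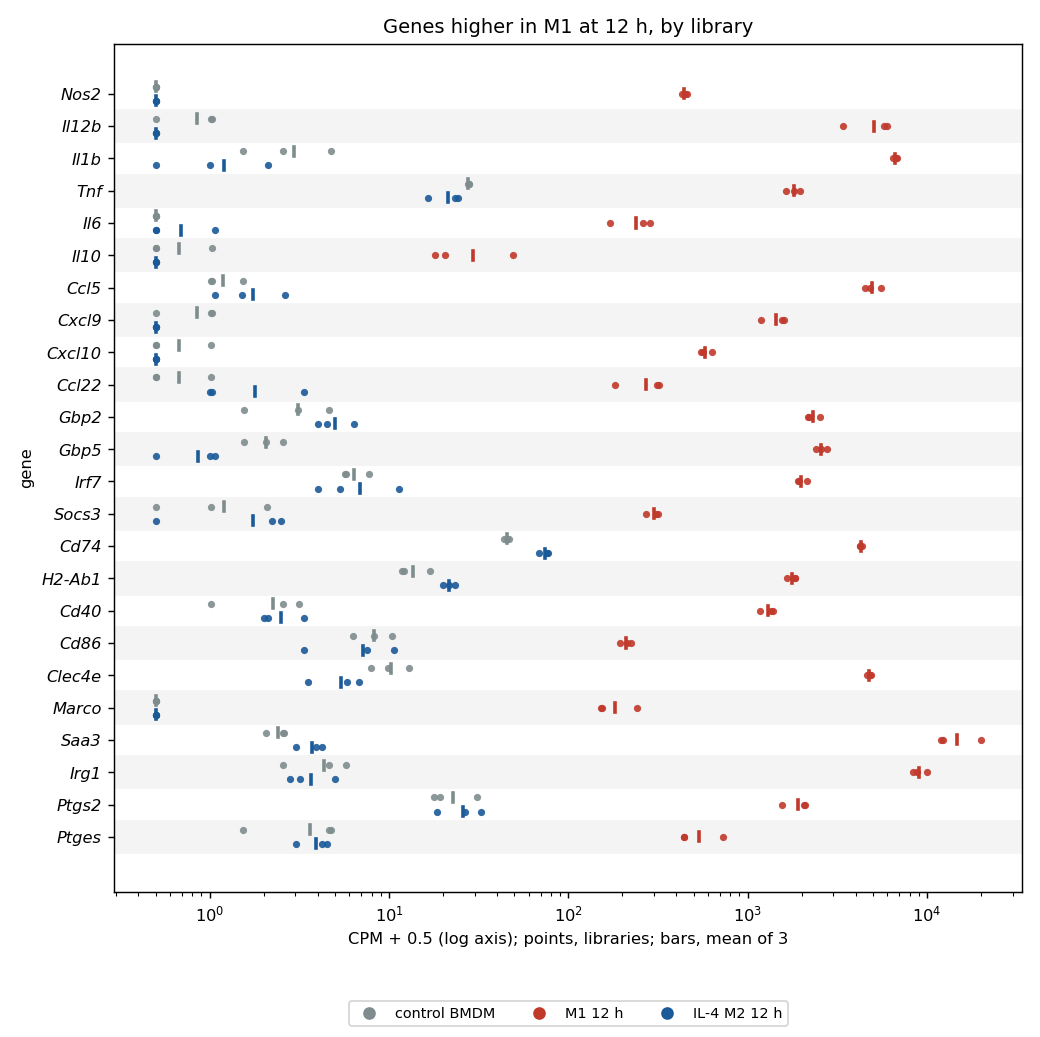
CPM + 0.5 (x axis, log) of 24 genes called higher in M1 in each of the 3 control (grey), M1 12 h (red) and IL-4 M2 12 h (blue) libraries; points are libraries and short bars the means of 3. In every row the M1 libraries stand to the right of all control and IL-4 M2 libraries, which lie close together.

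All 17 interferon-induced GTPases tested, guanylate-binding proteins and immunity-related GTPases that attack membranes of intracellular pathogens, were higher in M1 (median log2 fold change 8.97, or 7.76 with members at 0 in IL-4 M2 set at their bound). Gbp2 was at 2204, 2178 and 2518 CPM in M1 and 3.52, 5.87 and 4.01 CPM in IL-4 M2 (log2 fold change 8.97 ± 0.16 SE, adjusted p = 3.4e-22). Gbp5 had 2 counts in IL-4 M2 against 2400.0, 2569.8 and 2755 CPM in M1, a ratio of 7216 (95% counting interval 1997 to 59589.8). Irgm1 and Igtp, which also carried counts in control BMDMs, were at 806 ± 72.9 and 524 ± 101 CPM in M1 and 41.8 ± 1.99 and 12.9 ± 2.19 CPM in IL-4 M2. Of 36 antiviral interferon-stimulated genes tested, 34 were higher in M1 and none in IL-4 M2 (median 5.22). Ifitm2 was among those not called (1.43), and was called at 1.53, 1.58 and 1.501 without M1 replicate 1, M1 replicate 2 and IL-4 M2 replicate 2. Ifit1, which binds viral RNA, was at 2234, 2076 and 2563 CPM in M1 and 0.503, 1.07 and 0.573 CPM in IL-4 M2 (log2 fold change 11.50 ± 0.20 SE). Isg15, a ubiquitin-like modifier, was at 1164 ± 175 and 0.893 ± 0.615 CPM, and Rsad2, the antiviral enzyme viperin, at 2472 ± 252 and 1.59 ± 0.997 CPM. Members of these families share sequence (Gbp, Tgtp, Oas and Ifi200 genes among them), so that reads may be split or lost between copies and the values of single members are uncertain to that extent.

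The signalling components of both pathways divided less evenly. Of 33 JAK-STAT and IRF genes tested, 13 were higher in M1, 2 were higher in IL-4 M2 and 18 were not called (median 1.10). Irf7, a driver of type I interferon, was at 1929, 1900.3 and 2144 CPM in M1 and 3.52, 4.81 and 10.9 CPM in IL-4 M2 (log2 fold change 8.28 ± 0.18 SE). Stat6, the IL-4 signal transducer, was not called, at 232 ± 18.4 CPM in M1 and 281 ± 9.74 CPM in IL-4 M2. Irf1, an interferon-induced transcription factor, was higher in M1 (449 ± 25.5 and 76.8 ± 3.57 CPM). The feedback inhibitors Socs1 and Socs3 were also higher in M1, Socs3 at 309, 272 and 315 and 2.01, 0 and 1.72 CPM (log2 fold change 7.81 ± 0.24 SE) and Socs1 at 69.3, 85.6 and 109.9 and 15.6, 11.2 and 6.87 CPM (2.93 ± 0.23 SE). The IL-4 M2 libraries thus held more Socs1 than control BMDMs (0, 2.64 and 1.55 CPM) without overlap, though less than M1. Socs6 and Irf4 were the members higher in IL-4 M2 (-2.04 for Socs6). Cish, an inhibitor induced by STAT5 and STAT6, was below the filter, with 5.03, 3.74 and 3.44 CPM in IL-4 M2 and 0.559, 0 and 1.70 in M1.

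Of 26 genes of NF-κB and its regulators tested, 17 were higher in M1 and none in IL-4 M2, and 9 were not called (median 2.52). Nfkbia, the inhibitor IκBα, stood at 711, 709 and 709 CPM in M1 and 35.7, 35.8 and 22.9 CPM in IL-4 M2 (log2 fold change 4.47 ± 0.13 SE), and Tnfaip3, the ubiquitin-editing inhibitor A20, at 1014, 1007 and 1007 and 67.4, 74.2 and 72.7 CPM (3.80 ± 0.10 SE). The subunits Nfkb2 and Relb of the non-canonical pathway were higher in M1 as well (log2 fold changes 4.12 and 2.62). Genes of the receptors that sense LPS did not move as a block: Cd14, which hands LPS to TLR4, was at 2689.7, 2694 and 2827 CPM in M1 and 78.5, 75.8 and 70.5 CPM in IL-4 M2 (5.17 ± 0.11 SE), while Tlr4 itself was at 73.3, 67.4 and 111 and 185, 174 and 178 CPM (-1.10 ± 0.14 SE), which passed the FDR but not the fold threshold, on the IL-4 M2 side. Tlr2, the receptor for bacterial lipopeptides, was higher in M1 (4.85 ± 0.17 SE). In all, 10 of 23 members of the list of TLRs and LPS recognition were higher in M1, none was higher in IL-4 M2 and the median was 1.33.

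Antigen presentation was higher in M1 through both classes. Of 21 class I genes tested, 16 were higher in M1 and none in IL-4 M2 (median 2.79), among them H2-K1 (5341 ± 223 and 762 ± 30.4 CPM), the peptide transporter Tap1 (633 ± 19.3 and 27.3 ± 3.80 CPM) and the immunoproteasome subunit Psmb8 (106 ± 20.2 and 12.1 ± 4.62 CPM). The 5 not called were Canx, Calr, Pdia3, H2-D1 and Erap1. Class I genes are close copies of each other, so that single values are uncertain. Of 12 class II genes tested, 8 were higher in M1 and 1 in IL-4 M2. H2-Ab1 stood at 1846, 1838 and 1649 CPM in M1 and 21.1, 23 and 19.5 CPM in IL-4 M2 (log2 fold change 6.37 ± 0.13 SE, adjusted p = 1.56e-21), above 13.2 ± 2.90 CPM in control. Cd74, the invariant chain, was at 4239, 4332 and 4216 and 75.5, 76.9 and 68.2 CPM (5.84 ± 0.11 SE), and Ciita, the class II transactivator, at 40.3, 49.3 and 15.3 and 4.53, 5.34 and 3.44 CPM (2.92 ± 0.49 SE, adjusted p = 0.000482), lowest in replicate 3 of the M1 libraries. Ifi30, a lysosomal thiol reductase that helps unfold antigens, was the class II member higher in IL-4 M2 (126 ± 43.4 against 24.9 ± 1.70 CPM, log2 fold change -2.36). It was not called without M1 replicate 3 (adjusted p = 0.0233 in edgeR's test) or when the fold threshold was itself tested.

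Costimulatory molecules and checkpoint ligands fell on both sides, 12 of 18 higher in M1 and 4 higher in IL-4 M2 (median 3.23). Cd40 was at 1356, 1378 and 1170.3 CPM in M1 and 1.51, 1.60 and 2.86 CPM in IL-4 M2 (log2 fold change 9.31 ± 0.18 SE), Cd86 at 193, 224 and 212 and 7.04, 10.1 and 2.86 CPM (4.92 ± 0.19 SE) and Cd80 at 21.8, 22.5 and 23.8 and 3.02, 3.20 and 5.73 CPM (2.49 ± 0.29 SE). The 2 ligands of PD-1 lay in opposite directions. Cd274 (PD-L1) was at 2260.2, 2419 and 3356 CPM in M1 and 247, 257 and 247 CPM in IL-4 M2, and Pdcd1lg2 (PD-L2), given above, was higher in IL-4 M2. Cd274 in IL-4 M2 was nevertheless above the control (77.6, 82.8 and 70.7 CPM) without overlap. The other members higher in IL-4 M2 were Havcr2, the inhibitory receptor TIM-3 (-3.80, and -4.56 without M1 replicate 3), 4632428N05Rik, the checkpoint molecule VISTA (-2.77), and Cd200r1, an inhibitory receptor (-1.56, not called without M1 replicate 1 at -1.44).

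Surface receptors for uptake divided between the states. Of 25 scavenger, lectin and efferocytosis receptors and their partners tested, 9 were higher in M1 and 8 in IL-4 M2, with a median of -0.02. Clec4e (Mincle), which recognizes mycobacterial glycolipids, was at 4784, 4884 and 4609 CPM in M1 and 3.02, 5.34 and 6.30 CPM in IL-4 M2 (log2 fold change 9.91 ± 0.16 SE, adjusted p = 8.33e-23). Marco, a scavenger receptor for bacteria, was at 154, 151 and 241 CPM in M1 and at 0 in IL-4 M2 and control, at least 342-fold higher. On the other side, Clec7a (Dectin-1), the β-glucan receptor, stood at 1506, 1499.6 and 1510.0 CPM in IL-4 M2 and 116, 118 and 115 CPM in M1 (-3.71 ± 0.10 SE), and the lipid scavenger receptor Cd36 at 1514, 1442 and 1661 and 325, 345 and 457 CPM (-2.05 ± 0.11 SE). Trem2, a lipid-sensing receptor, was higher in IL-4 M2 (927 ± 69.8 against 315 ± 19.6 CPM), while Mertk, a receptor for apoptotic cells, was not called at 63.2 ± 7.16 and 60.2 ± 8.78 CPM. Among 21 Fc and complement genes tested, 8 were higher in M1 and 2 in IL-4 M2. The complement components C3 (1359, 1352 and 1086 and 29.7, 32.6 and 29.2 CPM, log2 fold change 5.36 ± 0.13 SE) and Cfb (1208, 1183 and 1512 CPM against 2 counts in IL-4 M2, a ratio of 3656 (95% counting interval 1012 to 30198)) were higher in M1. Fcgr1, the high-affinity IgG receptor, was at 618, 636 and 1111 and 30.2, 28.3 and 24.1 CPM, with replicate 3 highest in M1. Itgax, the integrin CD11c, and Cd59a, an inhibitor of complement lysis, were the members higher in IL-4 M2. Cd59a, at -1.55, was not called without M1 replicate 1, M1 replicate 3 or IL-4 M2 replicate 1 (-1.46, -1.47 and -1.44). C1qa was not called (1.05 ± 0.10 SE).

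Secreted defence proteins were among the genes farthest apart. Saa3, a serum amyloid A of macrophages, was at 11978, 12208 and 20049 CPM in M1 and 2.52, 3.74 and 3.44 CPM in IL-4 M2 (log2 fold change 12.12 ± 0.36 SE, adjusted p = 6.57e-09), and Lcn2, which binds bacterial siderophores, at 409, 409 and 791 CPM against 3 counts in IL-4 M2, a ratio of 1009 (95% counting interval 345 to 4895). Both were highest in M1 replicate 3, without which the log2 fold change of Saa3 was 11.84. Ptx3, a soluble pattern receptor, was at 36.9 ± 2.85 and 1.06 ± 0.493 CPM. In the list of acute-phase and secreted defence proteins, 9 of 14 were higher in M1 and none in IL-4 M2 (median 3.54), and Lyz2, the lysozyme of macrophages, was not called (13676 ± 1622 and 16278 ± 871 CPM).

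Among metabolic genes, the share of members called was 15.6% in the TCA cycle and itaconate list and 14.3% in the glycolysis and pentose phosphate list, near the background. Irg1 (Acod1), which makes itaconate from a TCA cycle intermediate, was at 8343, 8817 and 9997 CPM in M1 and 4.53, 2.67 and 2.29 CPM in IL-4 M2 (log2 fold change 11.42 ± 0.17 SE, adjusted p = 7.87e-23). Idh1, the cytosolic isocitrate dehydrogenase, was at 49.3, 61.4 and 66.4 CPM in IL-4 M2 and 10.1, 5.00 and 6.23 CPM in M1 (-3.04 ± 0.23 SE), with 60.0 ± 4.95 CPM in control. In the TCA cycle and itaconate list, Irg1 and Me1 were higher in M1, Glul, Idh1 and Pdk4 were higher in IL-4 M2, and 27 of 32 were not called, among them Sdha (126 ± 1.67 and 146 ± 15.0 CPM). Pdk4, with 10 counts in M1, was called at -1.82 and was -2.87 without M1 replicate 1. It lost the call when any other library was left out (from -1.88 to -1.23). Of 28 glycolytic and pentose phosphate genes, 4 were higher in M1 (Pfkfb3, Slc2a6, Pfkl and Hk3), none in IL-4 M2, and the median was 0.65. Pfkfb3, which makes the activator of phosphofructokinase, was at 541, 540.2 and 883 and 43.3, 38.5 and 41.2 CPM (3.98 ± 0.22 SE). Hk2, Slc2a1 and Ldha passed the FDR on the M1 side below the fold threshold (log2 fold changes 0.92, 0.73 and 0.42). Their M1 and IL-4 M2 libraries did not overlap, which held for 5405 of the 9011 genes tested (60.0%).

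None of 29 cholesterol and fatty acid synthesis genes was higher in M1 and 3 were higher in IL-4 M2, namely Dhcr7, Scd2 and Fads1 (log2 fold changes -2.85, -2.61 and -1.60), with a median of -0.32. The share called was 10.3%, below the 16.2% of all genes tested. Fads1 was not called without M1 replicate 2 (-1.46). Hmgcs1 passed the FDR at -1.34 ± 0.21 SE, whereas Sqle was at 69.6 ± 3.52 and 77.2 ± 2.35 CPM. Among 23 genes of lipid efflux and handling, 3 were higher in M1 and 7 in IL-4 M2 (median -1.14). The cholesterol exporters Abca1 and Abcg1, both known targets of the liver X receptors, lay in opposite directions: Abca1 was at 499, 513 and 704 CPM in M1 and 178, 152 and 110.0 CPM in IL-4 M2 (1.95 ± 0.18 SE), and Abcg1 at 20.7, 20.6 and 18.1 and 139.8, 159.7 and 158 CPM (-2.95 ± 0.14 SE). The liver X receptor gene Nr1h3 was higher in M1 (352 ± 50.6 and 84.5 ± 2.54 CPM). Ch25h, which makes 25-hydroxycholesterol, was at 70.5, 93.7 and 166 CPM in M1 and 0.503, 2.14 and 2.86 CPM in IL-4 M2. Lipa, the lysosomal acid lipase, was higher in IL-4 M2 at 1996, 1891 and 2086 against 446, 495 and 525 CPM, and Apoe passed the FDR on that side below the fold threshold (-0.76 ± 0.08 SE).

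The cyclooxygenases stood on opposite sides. Ptgs2, the inducible cyclooxygenase, was at 2048, 2098 and 1556 CPM in M1 and 18.1, 26.2 and 32.1 CPM in IL-4 M2 (log2 fold change 6.22 ± 0.17 SE), and Ptges, which makes prostaglandin E2, at 440.1, 439 and 728 and 2.52, 3.74 and 4.01 CPM (7.26 ± 0.33 SE). Ptgs1 was higher in IL-4 M2 (-4.54 ± 0.32 SE), as were Hpgd, which inactivates prostaglandins (-4.99, with 1 count in M1), Tbxas1, the thromboxane synthase (-1.98), and the receptors Ptgir and Ptger2 (-2.0 and -1.76). In this list 4 of 16 were higher in M1 and 5 in IL-4 M2. Iron genes were divided as well, 5 and 4 of 17. Tfrc, the transferrin receptor, was at 528, 513 and 520.1 CPM in IL-4 M2, 30.8, 28.1 and 41.4 in M1 and 164, 173 and 180.2 in control (M1 against IL-4 M2 -3.97 ± 0.13 SE), so that the groups did not overlap and the control lay between them. Hmox1, which degrades heme, was higher in M1 (744 ± 138 and 146 ± 8.95 CPM). Slc40a1, the iron exporter ferroportin, stood just past the fold threshold on the IL-4 M2 side (-1.51 ± 0.19 SE; 45.4 ± 8.58 and 16.1 ± 1.38 CPM), and both states lay far below the control (211 ± 12.0 CPM). It was not called in 7 of the other fits, among them those without M1 replicate 1, IL-4 M2 replicate 1 or IL-4 M2 replicate 2 (-1.43, -1.46 and -1.43). Of 26 phagocyte oxidase and antioxidant genes, 12 were higher in M1 and 1 in IL-4 M2, the latter Gpx1 (501 and 98.3 CPM). Cybb, the catalytic subunit of the oxidase, was at 6369.7, 6672 and 7201 CPM in M1 and 900.4, 944 and 1053 CPM in IL-4 M2 (2.79 ± 0.09 SE).

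Among lineage factors and nuclear receptors, 3 of 23 were higher in M1 (Cebpb, Maf and Nr1h3) and 5 in IL-4 M2 (among them Pparg, Cebpa, Mef2c and Id3). Cebpb and Cebpa, transcription factors of the same family, stood on opposite sides, at 98.3 ± 9.48 and 28.9 ± 3.26 CPM in M1 and IL-4 M2 for Cebpb and 44.2 ± 5.77 and 546 ± 30.5 CPM for Cebpa. Maf was higher in M1 at a log2 fold change of 1.86. Of 24 stimulus-responsive factors, 8 were higher in M1 and 7 in IL-4 M2, with a median of -0.03; Egr2, a factor induced by IL-4 and named here after its values were seen, was at 66.9, 68.4 and 79.6 CPM in IL-4 M2 and 1.68, 1.87 and 1.13 CPM in M1. Csf1r, the M-CSF receptor, was not called (459 ± 35.0 and 671 ± 63.7 CPM). In the list of growth factors and their receptors 3 of 21 were higher in M1, Tnfrsf1b, Nrp2 and Il17ra, and 4 were higher in IL-4 M2, Igf1, Il6st, Igf1r and Nrp1. Igf1, a growth factor that macrophages secrete in repair, was at 1466, 1446 and 1424 CPM in IL-4 M2, 69.3, 60.0 and 88.9 in M1 and 901, 918 and 954 in control (-4.32 ± 0.12 SE).

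Cell cycle genes were at low levels in both states. Of 54 DNA replication and mitosis genes, 31 passed the filter on low counts, none was higher in M1 and 6 were higher in IL-4 M2 (median -0.82). These calls were 19.4% of the members tested, near the 16.2% of all genes tested. Mki67 was not called and varied widely, at 52.0, 40.6 and 19.3 CPM in M1 and 13.1, 25.6 and 14.3 CPM in IL-4 M2, with 29.7 ± 1.55 in control. Top2a and Ccnb1 were not called either (log2 fold changes -0.96 and -1.01), and Mcm5, a subunit of the replicative helicase, passed the FDR at -0.66 ± 0.18 SE. The D cyclins differed: Ccnd2 was at 103, 85.6 and 45.9 CPM in M1 and 3.52, 3.20 and 4.58 CPM in IL-4 M2 (4.34 ± 0.40 SE), while Ccnd1 was at 6.15, 11.2 and 14.7 and 34.2, 31.0 and 26.9 CPM (-1.54 ± 0.24 SE) and was not called without M1 replicate 1 or without IL-4 M2 replicate 1 (-1.24 and -1.46). In the cell death and inflammasome list 13 of 31 were higher in M1 and 4 in IL-4 M2 (median 1.25). The latter were Bcl2l11 and Bmf, which promote apoptosis (-3.40 and -2.12), Bcl2, which opposes it (-1.59), and Nlrp1b (-1.60). Bcl2 was not called without M1 replicate 3 or IL-4 M2 replicate 3 (-1.47 and -1.498).

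Of 32 lysosomal genes, 4 were called (12.5%), near the background. Without the fold threshold, 17 passed the FDR on the IL-4 M2 side and 5 on the M1 side (median -0.42). Ctsc, which activates serine proteases, was higher in M1 (2981 ± 360.4 and 105 ± 10.9 CPM). Atp6v0d2, a subunit of the vacuolar proton pump, Ctsk and Ctsl were higher in IL-4 M2 (log2 fold changes -3.93, -2.0 and -1.71). Matrix proteases, integrins and guidance genes gave 9 of 32 higher in M1 and 9 higher in IL-4 M2 (median 0.23). Of 16 genes often used as references, B2m was called (5174 and 1181 CPM), which is also part of MHC class I, and the median was 0.22. Without the fold threshold, 7 of them passed the FDR on the M1 side and 3 on the IL-4 M2 side. Their summed level was 23141 to 25965 CPM in M1 and 11171 to 12466 CPM in IL-4 M2. Actb, not called at 1.46, was called at 1.51 without M1 replicate 1 and at 1.55 without IL-4 M2 replicate 1. Over the 32 lists together, 685 distinct genes were tested, of which 248 were higher in M1 and 85 in IL-4 M2. The lists were drawn up around macrophage activation, so that this share cannot be read against the background.

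**Figure D3:**
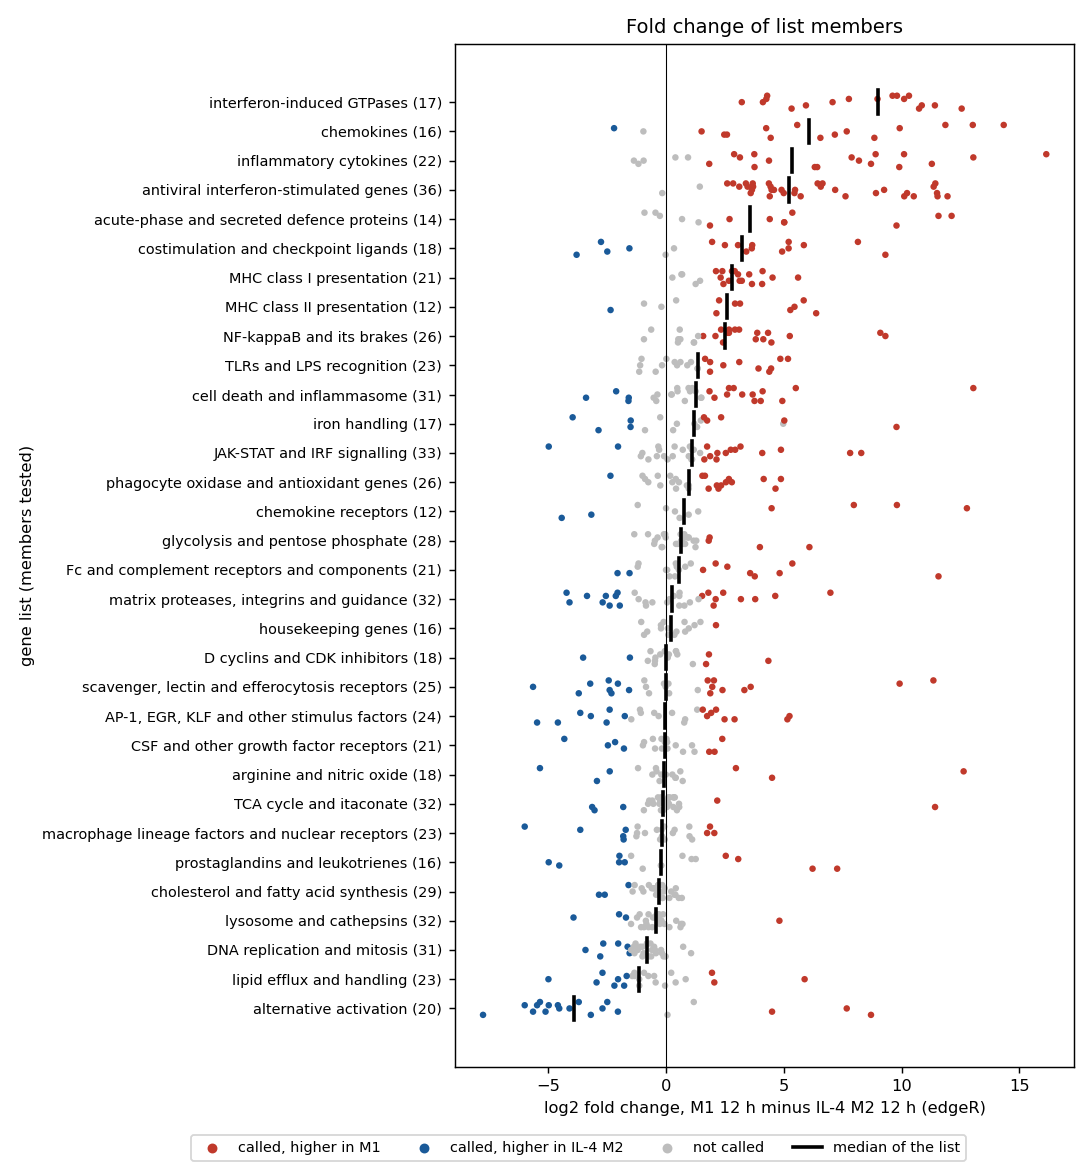
Log2 fold change of M1 over IL-4 M2 at 12 h (x axis) for every tested member of 32 gene lists (y axis, ordered by median, number tested in brackets); red and blue points are members called higher in M1 and in IL-4 M2, grey points are not called, and black bars are the list medians. Fitted values of genes without a count in a group depend on the fit and are drawn as fitted. Interferon-induced GTPases lie wholly to the right (median 8.97) and alternative activation mostly to the left (median -3.91).

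The 12 genes farthest apart on the IL-4 M2 side, among called genes with a mean of at least 20 CPM, included Chil3 and Pparg and 10 others of varied function. Their IL-4 M2 levels stood differently against the control. B3gnt7, a glycosyltransferase, was at 31.2, 43.3 and 30.4 CPM in IL-4 M2, 6.73, 5.27 and 8.26 in control and had 1 count in M1. Matk, a tyrosine kinase that inhibits Src family kinases, was at 62.9, 73.2 and 73.3, 19.7, 19.5 and 21.7 and 1.68, 0.624 and 1.13 CPM in IL-4 M2, control and M1. For both, the IL-4 M2 libraries lay above every control library and the M1 libraries below. Bex1 and Pald1 had the same order of means (52.9, 22.2 and 0.77 CPM for Bex1, 50.9, 24.0 and 0.375 CPM for Pald1). For Amz1 the IL-4 M2 libraries (67.4, 69.4 and 69.9 CPM) also lay above the control (54.3, 43.8 and 40.3 CPM), by less, with 1.13 CPM in M1. St6gal1, a sialyltransferase, was at 62.9, 71.0 and 67.6 CPM in IL-4 M2 and 60.0, 56.4 and 65.6 CPM in control, which overlapped, and at 0.559, 1.87 and 0 CPM in M1. Rasgrp3, an activator of Ras, was at 34.2, 33.6 and 30.4, 29.5, 41.1 and 26.8 and 0.559, 0 and 0 CPM. Tmem37 stood likewise (70.8, 65.2 and 1.17 CPM). Mamdc2 lay below every control library in IL-4 M2 (107, 115 and 102 against 137, 154 and 152 CPM), with 3 counts in M1, and Lrrc14b, at 32.1 and 43.2 CPM, had no count in M1, at least 54.9-fold lower. Of the counts at Lrrc14b in these libraries, 16.4% lay on the antisense strand.

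The log2 fold changes against control in the 21-library fit are set side by side here for genes described above. IL-4 M2 against control was 7.12 for Chil3, 2.45 for Mrc1, 2.69 for Irf4, 5.12 for Pdcd1lg2, 2.45 for Ptgs1 and 1.59 for Tfrc, all past both thresholds. M1 against control was -0.63, -3.18, -2.29, 2.64, -2.08 and -2.36 for the same genes. Of these M1 values, those of Chil3 and Irf4 did not pass the FDR (adjusted p = 0.272 and 0.0750 in edgeR's test), and the others passed both thresholds. For Igf1, Lgals3, Cd36, Lipa and Trem2, IL-4 M2 against control was 0.65, 0.73, 0.47, -0.23 and -0.18, and M1 against control -3.66, -2.33, -1.56, -2.25 and -1.74. For Igf1, Lgals3 and Cd36 the IL-4 M2 difference from control passed the FDR below the fold threshold (adjusted p = 7.1e-07, 3.68e-10 and 0.0058), and for Lipa and Trem2 it did not pass (adjusted p = 0.0686 and 0.202). Lgals3 (galectin-3), a carbohydrate-binding protein, was at 6724, 6623 and 7046 CPM in IL-4 M2, 4322, 4136 and 3795 in control and 819.8, 857 and 762 in M1, the largest difference in mean CPM among genes higher in IL-4 M2. The control libraries are shared and labelled with an earlier time, so that time and stimulus cannot be told apart in these values.

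**Figure D4:**
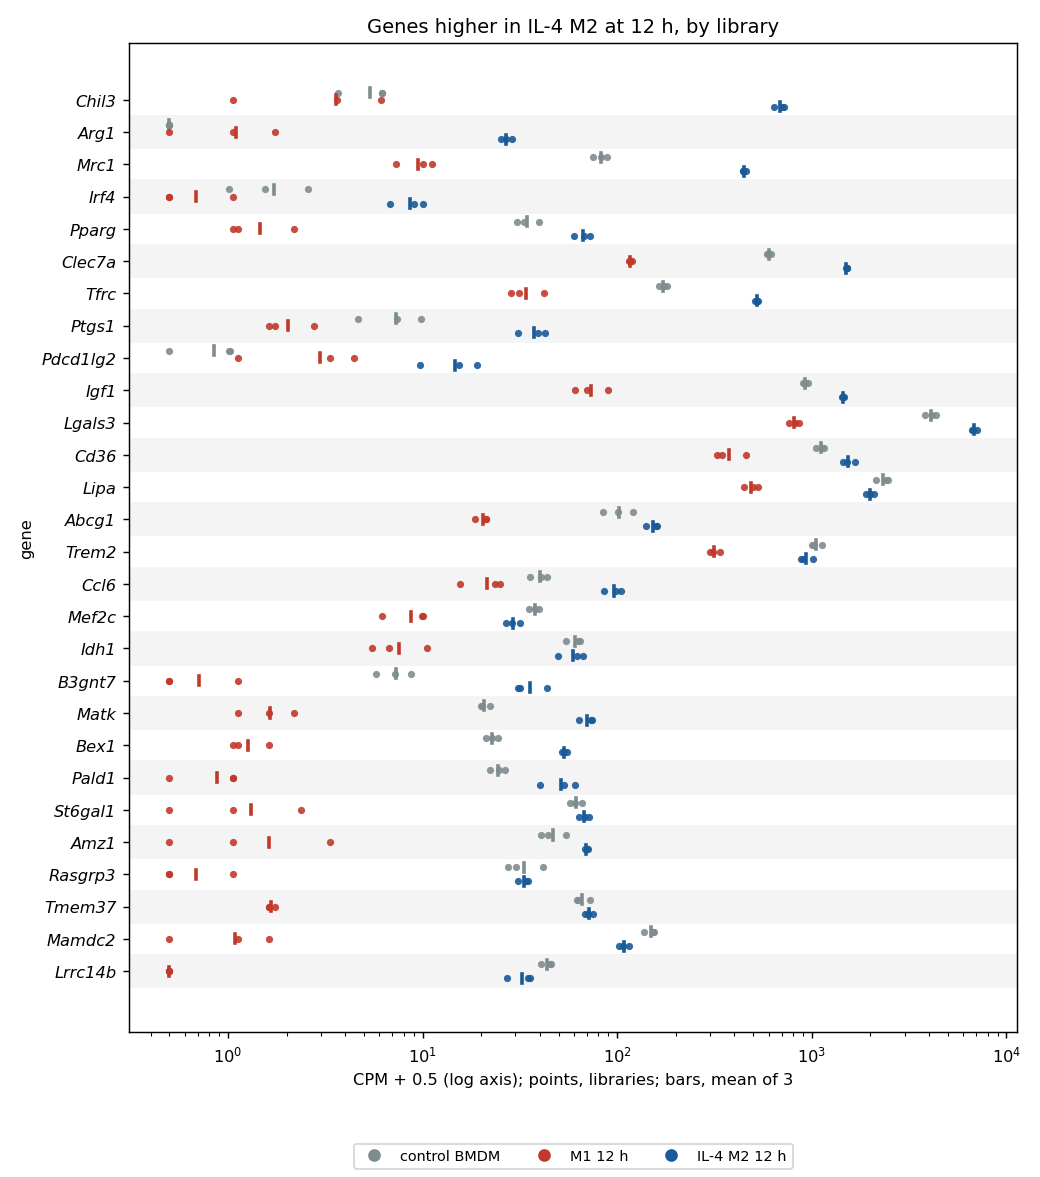
CPM + 0.5 (x axis, log) of 28 genes called higher in IL-4 M2 in each control (grey), M1 12 h (red) and IL-4 M2 12 h (blue) library; points are libraries and short bars the means of 3. Chil3 and Arg1 have control and M1 libraries together at the left, whereas for St6gal1, Trem2, Tmem37 and Rasgrp3 the control and IL-4 M2 libraries lie together and the M1 libraries apart.

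Among the 12 genes farthest apart on the M1 side were 3 not described so far. Ifi205 and Ms4a4c, interferon-induced genes, were at 919, 878 and 1164 and 741, 734 and 1143 CPM in M1 with 1 count each in IL-4 M2, ratios of 5549.7 (95% counting interval 996 to 219245) and 4914 (95% counting interval 881 to 194116). Pydc4, a gene of the pyrin domain family, was at 214, 235 and 316 CPM in M1 and at 0 in IL-4 M2, at least 478-fold higher. The order of these genes rests on fitted values of genes at or near 0 in IL-4 M2 and is not an order of effect. A log2 fold change past 1.5 did not always pass the FDR. In 3 such genes M1 replicate 3 stood far above the others: Ifit1bl1 (498, 462 and 937 CPM in M1, 0 in IL-4 M2), Slfn4 (351, 314 and 749 CPM, 0 in IL-4 M2) and Cp, ceruloplasmin (65.4, 52.5 and 175 CPM against 3.52, 2.14 and 3.44). Their adjusted p was 0.0101, 0.0209 and 0.0102, and 1.33e-100, 2.46e-89 and 1.98e-34 without that library, when the lone pair of M1 libraries sets the spread of the group.

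The IL-4 M2 libraries can be set beside those of IL-13, the other M2 cytokine, at the same time. In the 21-library fit 1 of 9841 genes passed both thresholds between IL-13 and IL-4 M2 (0.0102%) and 7 passed the FDR alone (0.0711%). All of these were higher with IL-13, and Chil3 was among them, at 1335 ± 20.1 CPM (SD, n = 3) with IL-13 against 687 ± 41.7 CPM with IL-4. Arg1 was at 37.6 ± 6.59 CPM and Mrc1 at 575 ± 52.1 CPM with IL-13, and neither passed the FDR. A p that misses the threshold does not show that the cytokines act alike. With M1 24 h libraries in place of M1 12 h, in the 21-library fit, 762 genes were higher in M1 and 650 higher in IL-4 M2 (14.3%). Of these, 637 and 459 were among the 803 and 655 genes called on the same side at 12 h. The log2 fold changes at 24 h were 6.45 for Tnf beside 6.41 at 12 h, 5.52 beside 5.84 for Cd74, -5.04 beside -6.00 for Pparg, -8.41 beside -7.77 for Chil3 and -6.52 beside -5.65 for Mrc1. The 24 h comparison shares the IL-4 M2 libraries with the 12 h comparison and differs in time, and the antisense share of Rn45s in its M1 libraries, given above, overlaps that of the IL-4 M2 libraries.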

How the data were processed

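PolyA RNA was named in the labels, while the protocol describes ribosomal RNA depletion and a strand-specific kit. The authors trimmed reads with Trimmomatic 0.33, aligned them to mm10 with STAR 2.5.1 and deposited counts per gene from STAR in 3 columns (unstranded and each strand). The sense column was used here, without Rn45s and without the summary lines. Reads in no annotated gene made up 64.8% to 69.1% of uniquely mapped reads in the 6 libraries.

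Of 24411 genes, 9011 passed edgeR's filterByExpr over the 6 libraries. edgeR 4.0.16 (R 4.3.3) was run with TMM scaling, glmQLFit (robust) and glmQLFTest, and p-values were adjusted by Benjamini-Hochberg over all genes tested. Calls needed an FDR of at most 0.01 with an absolute log2 fold change of 1.5 or more. DESeq2 1.42.0 was an alternative. Printed CPM (deposited counts divided by the scaled library size, times 1000000) come from TMM over 21 BMDM libraries, whose scaling differed from the 6-library fit by 0.015 (log2). Contrasts with control, IL-13 M2 and M1 24 h use that 21-library fit. Counting intervals are at 95%, and floors are 3 counts over the 3 libraries of a group. The fits were tested on simulated counts.

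Named genes were the lead genes of each list, the 12 called genes with the largest fold change on each side (no overlap, mean of at least 20 CPM), the 5 with the largest difference in mean CPM on each side, and members of a list with 5 or fewer calls in a direction. Members and lists were chosen with earlier results of these data known. Gene positions come from GENCODE M21. RAW264.7 libraries were not used. Some genes of the lists are counted but not reported here by name.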

Additional observations from a re-analysis of the deposited data

Results flagged for a closer look

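The antisense share of Rn45s counts, a measure outside the comparison, was 0.118% in the median M1 12 h library, above the 0.0386 to 0.0543% of the control libraries, while the IL-4 M2 libraries lay below the control at 0.00996 to 0.0214%. The ratio of sense to antisense counts over all genes moved with it, at 71.0 to 73.6 in M1 12 h, 80.1 to 82.6 in control and 90.6 to 95.9 in IL-4 M2. The part of this difference in the results was not tested.

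The difference between IL-13 and IL-4 M2, each set against M1, passed an FDR of 0.01 in the 21-library edgeR fit for 7 genes. The log2 fold changes of IL-13 over IL-4 were 1.64 for Cish, 1.499 for Irf4, 1.43 for Cx3cr1, 0.97 for Tmem26, 0.96 for Chil3, 0.63 for Slc7a2 and 0.50 for Jak2. For Chil3, Irf4 and Tmem26, which were higher in IL-4 M2 than in M1, the IL-13 libraries therefore lay farther from M1 (23.2 CPM for Irf4 and 93.5 CPM for Tmem26, against 8.13 and 47.7 CPM with IL-4), and for Jak2 and Slc7a2, which were higher in M1, they lay nearer to it.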

How the results depend on the processing

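Counts of genes higher in M1 and in IL-4 M2, 803 and 655 as reported, were 496 and 302 when at least 10 counts were required in each library, 1592 and 1512 at a log2 fold change threshold of 0.7, and 585 and 304 when the threshold of 1.5 was itself tested as the null hypothesis. The count minimum in each library removes genes at or near 0 in a group by construction. The other alternatives stayed within 1.5 times: 808 and 649 with RLE size factors, 649 and 971 without TMM, 957 and 813 without the filter, 810 and 646 with unstranded counts, 807 and 651 with Rn45s kept, 885 and 734 with 21 libraries and 809 and 623 with DESeq2. Leaving out each library in turn gave 821 to 853 and 660 to 708, and 821 and 708 without M1 replicate 3. Deviations of same-numbered libraries had correlations across genes of -0.040, 0.024 and 0.024, and those of the other pairs ran from -0.075 to 0.065. Correlations this small cannot show whether the numbers pair the libraries. A replicate block gave 804 and 657. M1 replicates 1 and 3 did not correlate best with the IL-4 M2 library of their own number.

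Of 121 named genes tested, no called gene changed direction under any alternative, and no other was called the opposite way. Mertk, which was not called, ran from -0.19 to 0.027 with a library left out. Under the threshold as null, 9 lost the call, among them Abca1, Ciita, Il10 and Trem2. Slc40a1 and Ccnd1, close to the fold threshold, lost it in several fits, and Il12b did without the filter, where its log2 fold change was 16.15; the cause was not tested. With 6 or fewer counts in a group, leaving out a library that held them moved the fitted log2 fold change of Amz1 to -7.57 (M1 replicate 3), Arg1 to -6.25 and St6gal1 to -7.59 (M1 replicate 2), Mamdc2 to -8.22 (M1 replicate 3), Il1b to 14.24 and Isg15 to 10.88 (IL-4 M2 replicate 2) and Cfb to 14.14 (IL-4 M2 replicate 1), from -5.82, -5.36, -6.33, -7.39, 13.04, 10.23 and 11.56. For B3gnt7, Rasgrp3, Irf4, Hpgd, Il6, Fpr1, Ifi205 and Ms4a4c, with 1 count in a group, the fitted value also grew in size without the library that held it. The log2 fold change moved from -7.07 to -9.01 for B3gnt7 and from 9.90 to 11.74 for Il6. Depth limits the low side: a gene under about 3 counts in a group cannot be given a fold beyond a lower bound.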

Other observations

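Some genes on the M1 side were also above the control in IL-4 M2, by less. These were chosen after their values were seen. Besides Slc7a2, Cd274 and Socs1, given in the report, C3 was at 29.7, 32.6 and 29.2 CPM with IL-4 and 7.76, 11.1 and 7.23 in control, and Irf1 at 78.0, 79.6 and 72.7 CPM with IL-4 and 47.1, 43.8 and 37.2 in control, without overlap, where M1 reached 1266 ± 155 and 449 ± 25.5 CPM (SD, n = 3). Jak2, a kinase of the IFN-γ receptor, was at 907 CPM in M1, 134 in IL-4 M2 and 58.5 in control by the means of 3 libraries. In the 21-library edgeR fit the log2 fold changes of IL-4 M2 against control were 3.52 for Slc7a2, 1.70 for Cd274, 2.98 for Socs1, 1.81 for C3, 0.85 for Irf1 and 1.20 for Jak2, with adjusted p from 9.94e-30 to 2.35e-06. Other genes moved the opposite way against control in IL-4 M2 and M1. Cd14 was at 78.5, 75.8 and 70.5 CPM with IL-4 and 259, 268 and 306 in control against 2737 ± 78.2 CPM in M1, Abca1 at 178, 152 and 110.0 CPM with IL-4 and 319, 283 and 341 in control against 572 ± 114 CPM in M1, and Tlr2 at 22.6, 41.1 and 21.2 CPM with IL-4 and 75.1, 81.2 and 101 in control against 827 ± 73.7 CPM in M1. The control is labelled 4 h, so that time and stimulus cannot be told apart in these values.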
